A study of Mus musculus with 64 samples.

Results

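The AP-1 and Egr immediate-early genes were followed as a set of 10 named genes (Fos, Fosb, Fosl1, Fosl2, Jun, Junb, Jund, Egr1, Egr2 and Egr3) in cultured mouse pancreatic tumor cells. The genes were listed by name, with earlier results of these data known, and all 10 were found among the 39017 genes of the count table. RNA had been sequenced from 8 tumor lines: the 7 clones E, H, K, M, N, T and V, which were subcloned from a single KPC tumor, and the KPC1 line. All lines in both cultures share the KPC genotype, in which a Cre recombinase driven by the Pdx1 promoter of the pancreatic lineage turns on mutant alleles, among them 1 of Trp53 (R172H) beside its wild-type allele, on a mixed C57BL/6 background. Of the 64 libraries, every line had 4 from mono-culture and 4 from tumor cells grown together with fibroblasts for 48 h and then sorted for the green fluorescent protein they carry. The mono-cultures are not stated to have been sorted, so that coculture and sorting cannot be told apart wherever the cultures are compared. Each line is 1 isolate, and nothing in the labels says whether the 4 libraries of a group came from separate cultures, so p-values within a line measure the spread between libraries, which may be technical.

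Immediate-early genes are transcribed within minutes of a stimulus, without new protein synthesis, mostly through serum response factor with its Elk partners and through CREB, both downstream of growth factor and stress kinases. Their products are transcription factors. Fos, Fosb, Fosl1 (Fra-1) and Fosl2 (Fra-2) pair with Jun, Junb or Jund to form AP-1, and Egr1, Egr2 and Egr3 are zinc finger factors that bind GC-rich sites. Fos and Egr1 transcripts are short-lived, whereas Fosl1 is a late member that AP-1 itself helps to induce and that is kept high by sustained growth factor signaling. The same genes are also known to be induced by handling of cells, such as enzymatic dissociation before sorting, which usually brings heat shock genes up with them.

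Library totals were 11178721 to 21333683 counts (median 15648009.5 over 64 libraries), and every member had counts in every library, from 9 counts for Egr2 upwards. All 64 libraries correlated best with a library of their own line and culture. The sample numbers in the labels run in 2 series, 1 to 43 (43 libraries, called series A here) and 44 to 64 (21 libraries, series B), which are unevenly spread over the groups: the 4 mono-culture libraries of clone K were all in series B and all 8 libraries of clone E in series A. The epithelial keratin Krt18 was between 836 and 1910 CPM (reads as a share of the library on a per-million scale, TMM-scaled) in every library. In mono-culture the fibroblast markers Dcn, Fap and Postn were at most 0.201 CPM and Thy1 was at 0 in 32 of 32 libraries. Their sum was 14.6 to 155 CPM in each of the 32 sorted coculture libraries, so that all of the latter held some RNA of these genes. These markers were picked because earlier results of these data had them near 0 in mono-culture, so that low level is no finding. Among the other listed fibroblast markers, Lum was also at 0 in mono-culture. Pdgfra reached 52.3 CPM there, Pdgfrb 115 CPM and Col3a1 119 CPM.

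The promoters of 4 members that the results turn on are shown because these genes share a mode of induction but did not move alike. RefSeq (GRCm38.p6) gave a start site for 7 of the 10 members (Fos, Fosb, Fosl2, Jun, Junb, Jund and Egr2). The sequences are the 250 bases upstream of that start site, written from 5′ to 3′ on the strand of the gene, with the motifs found in capitals: the CRE half-site (TGACG), which CREB and ATF proteins bind, the TATA box (TATAAA) and an AP-1-like site (TGACATCA). They lie at chr12:85473640-85473889 (plus strand) for Fos, chr7:19310046-19310295 (minus strand) for Fosb, chr8:84978749-84978998 (minus strand) for Junb and chr4:95052223-95052472 (minus strand) for Jun.
Fos: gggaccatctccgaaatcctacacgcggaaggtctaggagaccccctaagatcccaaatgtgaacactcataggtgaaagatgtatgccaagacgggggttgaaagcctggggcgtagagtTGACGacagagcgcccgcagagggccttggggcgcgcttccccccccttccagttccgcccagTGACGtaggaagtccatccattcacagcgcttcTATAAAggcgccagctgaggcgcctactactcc
Fosb: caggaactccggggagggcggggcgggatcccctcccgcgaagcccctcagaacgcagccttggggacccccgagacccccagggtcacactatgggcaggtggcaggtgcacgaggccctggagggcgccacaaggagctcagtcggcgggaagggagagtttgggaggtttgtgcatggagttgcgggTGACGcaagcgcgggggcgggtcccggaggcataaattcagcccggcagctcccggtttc
Junb: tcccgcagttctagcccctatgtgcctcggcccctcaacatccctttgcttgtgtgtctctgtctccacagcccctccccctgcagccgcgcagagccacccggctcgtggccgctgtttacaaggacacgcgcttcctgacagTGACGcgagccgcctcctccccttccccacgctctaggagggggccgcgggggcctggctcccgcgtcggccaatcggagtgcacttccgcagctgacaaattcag
Jun: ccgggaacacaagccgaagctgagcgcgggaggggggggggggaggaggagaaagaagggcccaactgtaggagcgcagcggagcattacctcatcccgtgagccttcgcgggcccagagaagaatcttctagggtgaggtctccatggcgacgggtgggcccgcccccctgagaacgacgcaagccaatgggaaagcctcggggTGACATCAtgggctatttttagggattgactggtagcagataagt
The Fos window held the CRE half-site at 129 and at 66 bases before the start, and a TATA box at 33. The Fosb window held 1 CRE half-site at 60 bases and the Junb window 1 at 106 bases before the start, all on the strand of the gene. The Jun window held none, but held the AP-1-like site at 45 bases before the start. Both strands were searched over 32851 windows of 250 bases, of which 17.8% held the CRE half-site, 12.4% the TATA box and 2.93% the AP-1-like site. The full CRE (TGACGTCA, which contains the half-site, 1.55% of windows), the AP-1 site (TGANTCA with C or G at the N, 4.46%) and the CArG box of serum response factor (1.47%) were in none of these 4 windows. Of the members whose windows are not shown, Egr2 had a CArG box and the CRE half-site in some of its windows. The Jund and Fosl2 windows held none of these motifs. The Jund window ended at base 70697738 of chromosome 8, while GENCODE starts the gene at 70698949. The Fosl2 window began at base 32136222 of chromosome 5, inside the gene as GENCODE starts it (32135801). The annotations thus differ in these start sites. In coculture, as given below, Jund was lower, and Egr2 and Fosl2 were not called. Only 250 bases before the start were searched, so a motif absent from a window may lie further upstream. A match is a run of letters and was not shown here to be bound.

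Per length, the most abundant member in mono-culture was Jund, at 204 ± 33.6 RPKM (reads scaled by gene length and library size; mean ± SD over 8 lines, here and for the levels that follow). Junb, often a brake on Jun, was at 156 ± 56.9 RPKM and Fos at 87.3 ± 85.3 RPKM. Egr1 was at 66.9 ± 33 RPKM, Fosl1 at 54.3 ± 32 RPKM and Jun itself at only 30.1 ± 15.1 RPKM. The lowest were Egr3 (17.9 ± 13.2), Fosl2 (12.3 ± 4.51), Fosb (9.60 ± 8.84) and Egr2 (2.39 ± 2.07 RPKM). For Fos the SD over the lines was about as large as the mean, and for Jund it was small. In coculture Jund was still the highest, at 166 ± 52.8 RPKM, but Fosl1 (115 ± 49.2 RPKM) now stood above Junb (107 ± 19.3 RPKM) in the mean, and Fos was at 33.2 ± 44.7 RPKM.

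**Figure D1:**
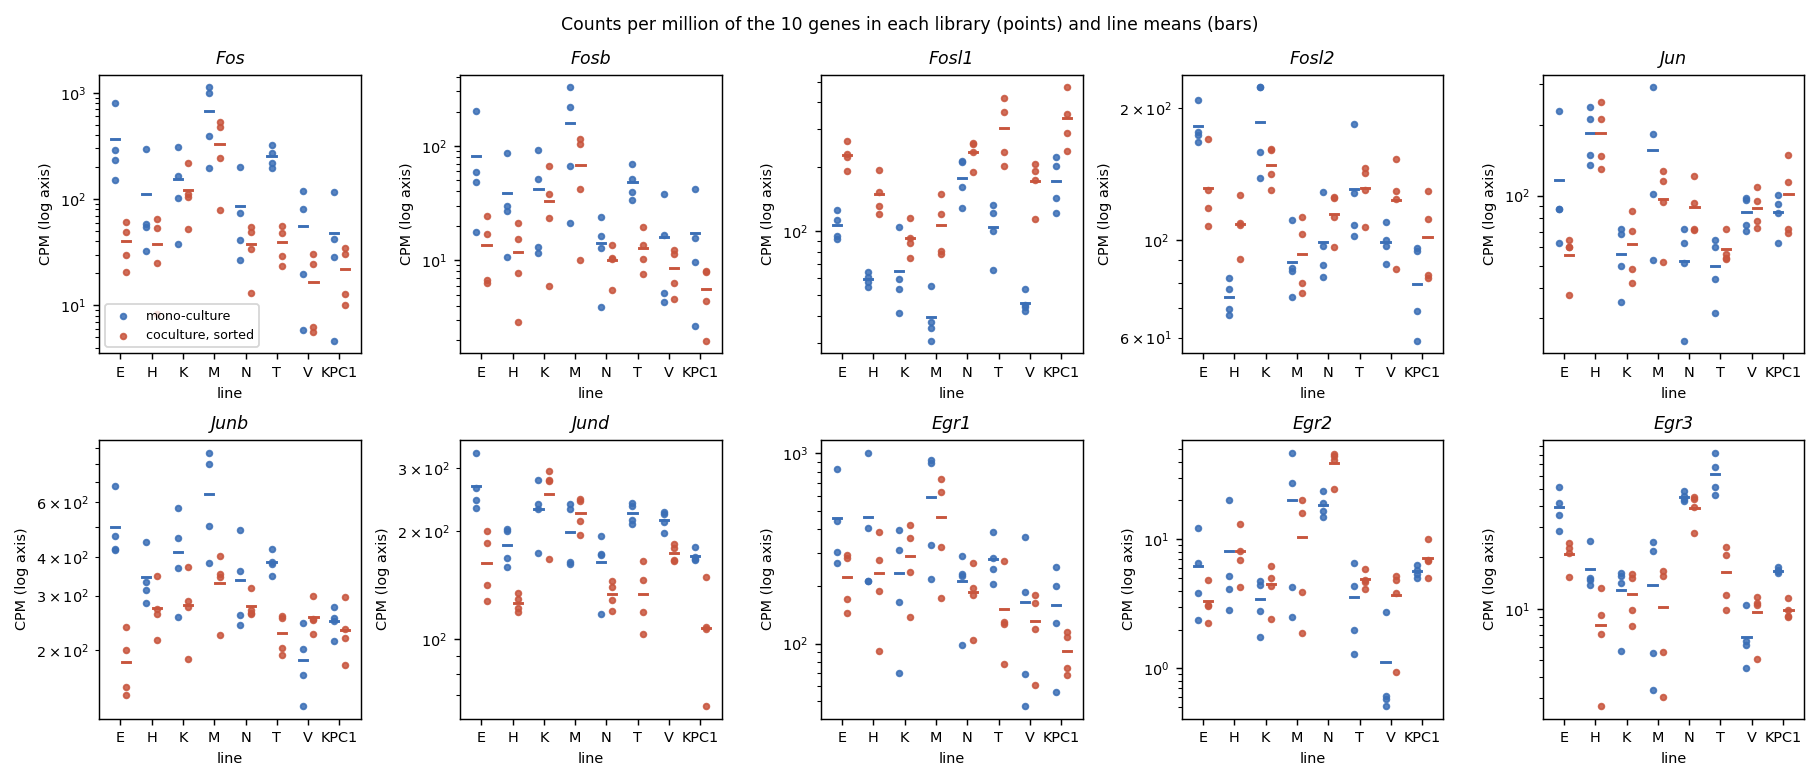
Level of each of the 10 genes in CPM (log axis) in the 4 mono-culture (blue) and 4 sorted coculture (red) libraries of each line; points are libraries and bars the means of 4. Fos and Fosb libraries of 1 line and culture spread widely, from 4.67 to 116 CPM for Fos in KPC1 mono-culture, and Fosl1 coculture libraries lay above all mono-culture libraries in 6 of 8 lines.

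Coculture was first compared with mono-culture over the 8 lines, each line serving as its own control, with the 4 libraries of each line and culture summed (edgeR's quasi-likelihood test on 16 sums, Benjamini-Hochberg adjustment over 16246 genes, called at an adjusted p under 0.1). Of the 10 members, 6 were lower in coculture (Fos, Fosb, Junb, Jund, Egr1 and Egr3), 1 was higher (Fosl1) and 3 were not called (Fosl2, Jun and Egr2). Over all genes tested 25.1% were called lower and 26.8% higher, so the culture moved a large part of the transcriptome. The median log2 fold change of the members was -0.41, against 0.006 over all genes tested. In bulk RNA, fewer cells that express a gene and less RNA per cell cannot be told apart.

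Fos, the founding partner of Jun in AP-1, fell the most. Its log2 fold change over the lines was -1.59 (SE 0.29, n = 8 lines, edgeR adjusted p = 0.0028), and the mean was lower in coculture in 8 of 8 lines. Over the 32 mono-culture libraries Fos ran from 4.67 to 1127 CPM with a median of 135 CPM, and over the 32 coculture libraries from 5.61 to 527 CPM with a median of 41.3 CPM. The ranges of the cultures thus overlapped over all lines, and the shift is seen within lines. In clone E the 4 mono-culture libraries held 292, 235, 152 and 805 CPM and the coculture libraries 49.4, 30.01, 20.7 and 60.9 CPM. In clone T they held 273, 198, 221 and 320 CPM against 56.3, 23.6, 28.9 and 48.0 CPM. These were the 2 lines in which every coculture library was below every mono-culture library. Over all genes tested this held for 16.9% of pairs of gene and line, so 2 of 8 lines is not far from that share. Taken line by line (all 64 libraries in 1 edgeR fit, 14134 genes, adjusted within each line), the fall was called in E (-3.20, SE 0.84, adjusted p = 0.0012), in T (-2.69, SE 0.82, adjusted p = 0.0048) and in V (-1.75, SE 0.82, adjusted p = 0.068). The call in V was lost under 8 of 12 alternatives, among them leaving out replicate 1, 3 or 4 (-1.85, -1.54 and -1.75, adjusted p = 0.11, 0.21 and 0.13). V held 5.91, 19.5, 118 and 81.2 CPM against 6.29, 5.61, 30.3 and 24.2 CPM, which overlap. Clone H, which was not called (-1.55, SE 0.80, adjusted p = 0.12), passed without replicate 1 (-2.15, adjusted p = 0.074). In K, the line with the fewest genes called, the estimate was -0.32 (SE 0.77, adjusted p = 0.84).

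Fosb, the closest relative of Fos in this set, moved with it. It was lower in coculture in the mean of 8 of 8 lines, by a log2 fold change of -1.34 (SE 0.23, edgeR adjusted p = 0.0025). Its median over libraries was 28.5 CPM in mono-culture (range 2.66 to 327 CPM) and 10.4 CPM in coculture (range 1.98 to 114 CPM). Only in clone T did the cultures not overlap, while 16.9% of all pairs of gene and line had every coculture library below. There Fosb held 69.7, 33.4, 39.7 and 50.9 CPM in mono-culture and 19.6, 7.57, 10.2 and 13.5 CPM in coculture. It was called in E (-2.58, SE 0.83, adjusted p = 0.0076), in T (-1.93, SE 0.82, adjusted p = 0.041) and in H (-1.72, SE 0.82, adjusted p = 0.094). The call in H was lost under 8 of 12 alternatives, among them leaving out replicate 2, 3 or 4 (-1.66, -1.09 and -1.70, adjusted p = 0.16, 0.46 and 0.15), and that in T without replicate 3 (-1.92, adjusted p = 0.11).

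Fosl1, which encodes Fra-1, went the other way. It was higher in coculture in the mean of 8 of 8 lines, by a log2 fold change of 1.16 (SE 0.16, edgeR adjusted p = 0.0011), and kept its call under all 23 alternatives tried, with adjusted p between 2.5e-14 and 0.0044. Mono-culture libraries held 30.7 to 221 CPM (median 78.7 CPM) and coculture libraries 75.0 to 471 CPM (median 192 CPM). In clone V the libraries held 45.1, 42.2, 53.3 and 44.2 CPM in mono-culture and 114, 192, 206 and 173 CPM in coculture. In KPC1 they held 201, 221, 143 and 121 CPM against 352, 471, 287 and 237 CPM. In both lines the cultures were fully apart, as they were in E, H, M and T. Over the 8 lines, 18.3% of all pairs of gene and line had every coculture library above every mono-culture library. Fosl1 was called in these 6 lines, from 0.97 (SE 0.24, adjusted p = 0.0018) in KPC1 to 1.89 (SE 0.25, adjusted p = 1.5e-08) in V, and not in K (0.51, SE 0.24, adjusted p = 0.16; without replicate 4, 0.72 and 0.060) or N (0.39, SE 0.24, adjusted p = 0.22).

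**Figure D2:**
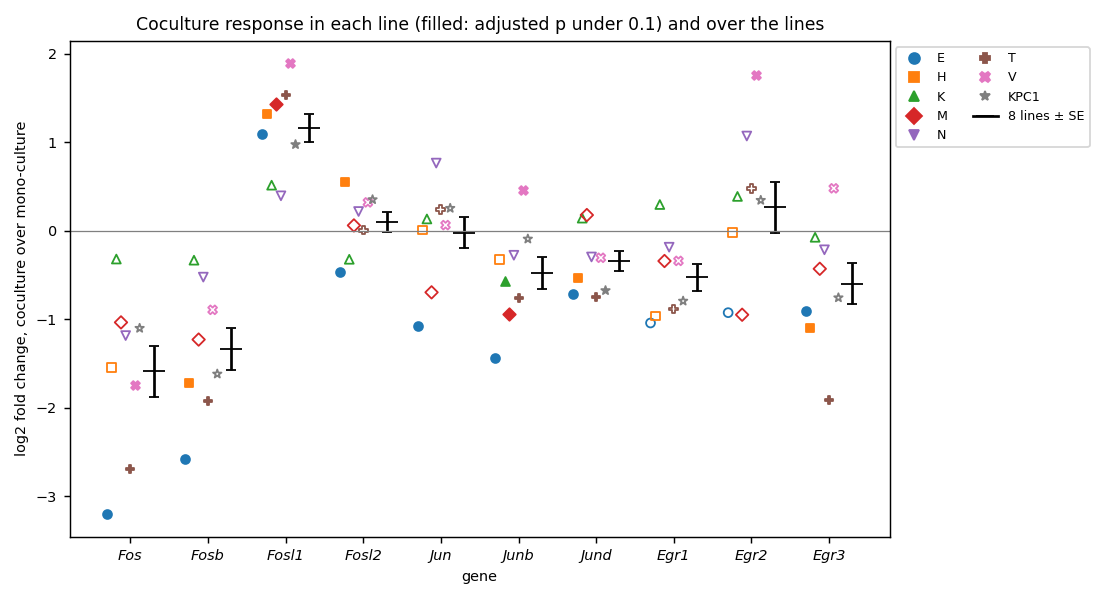
Log2 fold change of coculture over mono-culture for each gene; colored symbols are lines, filled where the edgeR adjusted p was under 0.1, and the black bar is the estimate over 8 lines ± SE. Fos and Fosb lie below 0 and Fosl1 above 0 in 8 of 8 lines, while Jun and Fosl2 scatter about 0.

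Per length, the makeup of the Fos family transcripts stood differently in the 2 cultures, while their sum was alike in the mean. The summed RPKM of Fos, Fosb, Fosl1 and Fosl2 was 163 ± 86.8 in mono-culture and 165 ± 43.7 in coculture (mean ± SD over 8 lines). Fos made up 42.6 ± 21% of that sum in mono-culture and 18.3 ± 19% in coculture, and Fosl1 42.2 ± 22.1% and 70.8 ± 21%. Fosl1 exceeded Fos, per length, in 14 of 32 mono-culture libraries and in 27 of 32 coculture libraries. By line means it did so in 3 of 8 lines in mono-culture (N, V and KPC1) and in 7 of 8 in coculture. The exception was clone M, which had the most Fos and the least Fosl1 in mono-culture. These shares restate the changes of the genes above and were not tested on their own.

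**Figure D3:**
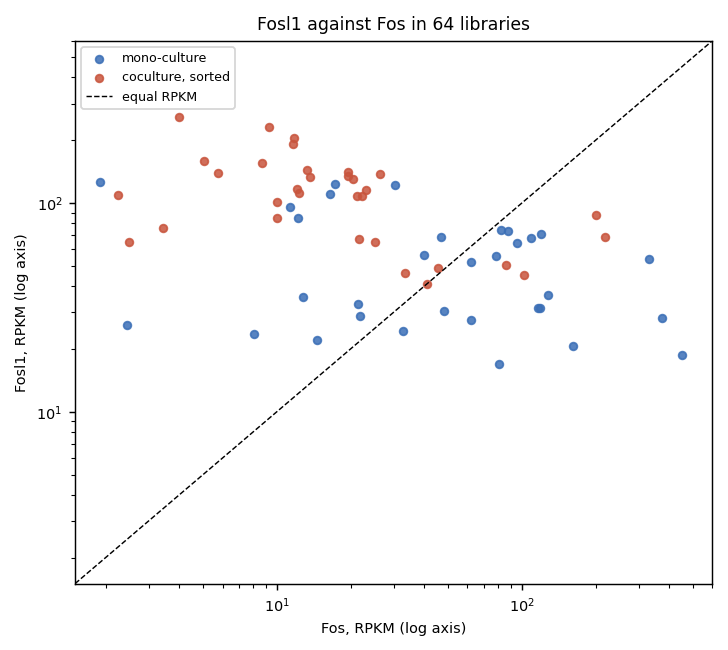
RPKM of Fosl1 (y axis) against RPKM of Fos (x axis), both on log axes, in 32 mono-culture (blue) and 32 sorted coculture (red) libraries; the dashed line marks equal RPKM. Above the line lie 27 of 32 coculture and 14 of 32 mono-culture libraries.

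Fosl2, the other late Fos member, was not called over the lines (log2 fold change 0.10, SE 0.11, edgeR adjusted p = 0.50). It was called in opposite directions in 2 clones: lower in E (-0.47, SE 0.18, adjusted p = 0.024) and higher in H (0.55, SE 0.18, adjusted p = 0.013). In H the libraries held 77.5, 69.6, 67.7 and 82.1 CPM in mono-culture and 90.5, 109, 127 and 108 CPM in coculture, without overlap (beside 18.3% of all pairs of gene and line). In E they held 168, 177, 210 and 174 CPM against 118, 130, 170 and 108 CPM, where the highest coculture library overlapped. The call in H was lost without replicate 3 (0.43, adjusted p = 0.10), and without replicate 1 a rise in V was called (0.41, adjusted p = 0.091).

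Of the Jun partners, Jun itself was not called over the lines (-0.02, SE 0.17, edgeR adjusted p = 0.92), with medians of 73.5 CPM in mono-culture and 72.6 CPM in coculture. It was called lower in E alone (-1.07, SE 0.36, adjusted p = 0.011), where replicate 4 of the mono-culture held 230 CPM and the other three 62.8 to 87.8 CPM. Without replicate 4 that call was lost (-0.59, adjusted p = 0.18), and in N a rise was then called (0.94, adjusted p = 0.062).

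Junb was lower over the lines by 0.48 on the log2 scale (log2 fold change -0.48, SE 0.18, edgeR adjusted p = 0.052), with medians of 364 and 256 CPM. That call rested on single lines: it was lost without E (-0.36, adjusted p = 0.10), without M (-0.42, adjusted p = 0.11) and without T (-0.44, adjusted p = 0.11). In clone E the libraries held 421, 468, 426 and 679 CPM in mono-culture and 201, 238, 144 and 152 CPM in coculture, without overlap (beside 16.9% of all pairs of gene and line). Junb was called lower in E (-1.44, SE 0.23, adjusted p = 9.2e-07), M (-0.95, SE 0.23, adjusted p = 0.0013), T (-0.76, SE 0.23, adjusted p = 0.0042) and K (-0.57, SE 0.23, adjusted p = 0.087). It was called higher in V (0.46, SE 0.23, adjusted p = 0.084), where 166, 132, 245 and 202 CPM stood against 250, 226, 298 and 252 CPM. The call in K was lost under 7 of 12 alternatives, among them leaving out replicate 2, 3 or 4 (-0.38, -0.51 and -0.47, adjusted p = 0.32, 0.28 and 0.30). That in V was lost under 6 of 12, among them leaving out each replicate in turn (0.41 to 0.54, adjusted p = 0.10 to 0.20).

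Jund, the Jun member that is present in resting cells, was lower by a small amount (-0.35, SE 0.11, edgeR adjusted p = 0.032), with medians of 206 and 148 CPM. Its libraries were tight, and the 4 coculture libraries were below all 4 mono-culture libraries in 5 lines (E, H, T, V and KPC1). Over all genes tested this held for 16.9% of pairs of gene and line. In KPC1 it was 166, 168, 169 and 181 CPM against 108, 65.3, 149 and 107 CPM. It was called lower in E (-0.71), H (-0.53), T (-0.75) and KPC1 (-0.67, SE 0.17 in each), with adjusted p between 0.00015 and 0.010, and in K and M the estimate was above 0 (0.14 and 0.18, adjusted p = 0.645 and 0.449).

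Egr1, which acts through GC-rich sites of growth and repair genes, was lower over the lines by a log2 fold change of -0.53 (SE 0.15, edgeR adjusted p = 0.018) and in the mean of 7 of 8 lines. It was called in no single line in this fit, and the cultures overlapped in all 8. In clone E, 443, 303, 265 and 829 CPM stood against 294, 146, 171 and 281 CPM. In clone K, the exception, 70.3, 396, 309 and 166 CPM stood against 421, 238, 358 and 138 CPM. Within a line, the highest library in mono-culture was between 1.87 and 7.71 times the lowest, which is more than the shift between the cultures.

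Egr3 was lower over the lines (-0.60, SE 0.23, edgeR adjusted p = 0.059), but the call was lost without replicate 4 (-0.52, adjusted p = 0.12) and without each of E (-0.56, adjusted p = 0.12), H (-0.52, adjusted p = 0.13), T (-0.43, adjusted p = 0.11) and KPC1 (-0.58, adjusted p = 0.11). In clone T the fall was large: 67.4, 46.3, 82.3 and 51.6 CPM against 20.8, 9.85, 12 and 22.9 CPM (-1.92, SE 0.41, adjusted p = 7.1e-05). It was also called in E (-0.91, SE 0.40, adjusted p = 0.047) and H (-1.10, SE 0.42, adjusted p = 0.033), and in E, H, T and KPC1 the cultures did not overlap. Over all genes tested, 16.9% of pairs of gene and line had every coculture library below every mono-culture library. The calls in E and H were lost without replicate 4 (-0.63, adjusted p = 0.27, and -0.86, adjusted p = 0.19), and that in H also without replicate 3 (-0.93, adjusted p = 0.18).

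Egr2, the least abundant member, was not called over the lines (0.26, SE 0.29, edgeR adjusted p = 0.48). In clone V it rose from 0.611, 0.513, 2.74 and 0.581 CPM to 0.936, 3.85, 4.88 and 5.21 CPM (1.76, SE 0.76, adjusted p = 0.047), a call lost without replicate 2 (1.5, adjusted p = 0.14) or 4 (1.35, adjusted p = 0.23). Clone N had the most Egr2 in coculture, where 24.5, 44.4, 41.3 and 45.8 CPM lay above 19, 16.5, 14.9 and 23.8 CPM, though this was not called (1.07, SE 0.57, adjusted p = 0.16). Over all genes tested 18.3% of pairs of gene and line lay above without overlap.

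Counted over the 80 pairs of member and line, 19 were called lower and 9 higher, beside 21.9% of all pairs of gene and line called lower and 23.6% called higher. They were unevenly spread. In E 7 members were called lower and 1 higher, in T 5 and 1, in H 3 and 2, and in V 1 and 3. In M and KPC1 it was 1 and 1, in K 1 lower, and in N no member was called either way. For all genes the share called lower was 29.2% in E, 30.6% in T, 22.5% in H, 31.4% in V, 17.2% in M, 19% in KPC1, 7.96% in K and 17.3% in N. The share called higher was 32.1% in E, 31.5% in T, 21.4% in H, 30% in V, 21.5% in M, 20.1% in KPC1, 12.4% in K and 20% in N.

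Whether the response differed between the lines was tested as the interaction of line and culture (7 degrees of freedom). It was called for 6 of 10 members, beside 71.3% of all genes: Junb (adjusted p = 0.00011), Jund (adjusted p = 0.00085), Fosl1 (adjusted p = 0.0019), Fosl2 (adjusted p = 0.0052), Egr3 (adjusted p = 0.015) and Jun (adjusted p = 0.039, edgeR quasi-likelihood F test for each). It was not called for Fos (adjusted p = 0.27), Fosb (adjusted p = 0.58), Egr1 (adjusted p = 0.73) or Egr2 (adjusted p = 0.11). For Fos and Fosb the calls in some lines and not in others are therefore not shown by this fit to be a difference between lines. The number of members called was 5 to 9 over the 12 alternatives tried. The 9 of 10 came with the replicate number as a block, so the lack of a call for these genes depends on the fit. For Fos, Fosb, Egr1 and Egr2 the standard errors within a line were 0.56 to 0.88 on the log2 scale, against 0.17 to 0.25 for Fosl1, Fosl2, Junb and Jund.

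Within each number series the 7 called members kept their direction, and fewer were called in the smaller series. These fits took single libraries in place of sums, with the line as covariate. Their p-values thus measure the spread between libraries, unlike those over the lines. In series A alone (21 mono-culture and 20 coculture libraries of 7 lines) the log2 fold change was -1.79 for Fos, -1.46 for Fosb, 1.36 for Fosl1, -0.55 for Junb, -0.45 for Jund, -0.63 for Egr1 and -0.62 for Egr3, all called. In series B alone (11 and 7 libraries of 5 lines) Fosl1 (0.81, adjusted p = 0.0032), Junb (-0.41, adjusted p = 0.028) and Egr3 (-0.62, adjusted p = 0.080) were called by edgeR. Fos (-0.99, adjusted p = 0.17), Fosb (-0.77, adjusted p = 0.29), Jund (-0.06, adjusted p = 0.71) and Egr1 (-0.14, adjusted p = 0.80) were not. In the 11 groups that held both series, Fos was higher in series A in 9 groups, by a median of 0.28 on the log2 scale, and Egr1 in 8, by a median of 0.57.

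The genes around the members were counted from lists written by name. Of 31 other immediate-early genes 9 were lower and 7 higher in coculture, near the shares over all genes tested (25.1% lower and 26.8% higher). Their median log2 fold change was -0.02, so this list did not move one way. Its most abundant genes were Ccn1 (0.29, SE 0.23, edgeR adjusted p = 0.34), Klf6 (-0.07, SE 0.15, adjusted p = 0.73), Mcl1 (-0.26, SE 0.07, adjusted p = 0.013) and Zfp36 (-1.35, SE 0.35, adjusted p = 0.012). Zfp36 encodes a protein that destabilizes short-lived messages, and its mean was 253 ± 243 CPM in mono-culture and 83.1 ± 79.7 CPM in coculture (SD over 8 lines).

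Of the partners of AP-1 and Egr, 9 of 13 found once in the table were tested, and 3 were lower and 2 higher. The shares to set beside this list and the upstream factors are 25.1% lower and 26.8% higher over all genes tested. Nab2, a corepressor that Egr factors induce and that binds them, fell from 60.3 ± 18.9 to 40.1 ± 17 CPM (-0.59, SE 0.12, edgeR adjusted p = 0.0040), and its relative Nab1 fell by a log2 fold change of -0.28 (SE 0.10, adjusted p = 0.040). Atf2 (-0.09, adjusted p = 0.16) and Maf (-0.73, adjusted p = 0.25) were not called. Of 16 upstream factors and kinases 5 were lower and 3 higher, and among the most abundant, the Ets factor Elk3 and the kinases Mapk3 and Rps6ka3 lay between -0.12 and -0.07 and were not called (adjusted p between 0.26 and 0.43).

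Of 18 genes often named as AP-1 targets, 0 were lower and 11 higher, with a median log2 fold change of 0.56; 26.8% of all genes were higher. The most abundant was Spp1, a secreted matrix protein (0.79, SE 0.33, edgeR adjusted p = 0.076), followed by the receptor kinase Axl (0.08, SE 0.07, adjusted p = 0.41), Cd44 (0.05, SE 0.08, adjusted p = 0.59) and the cyclin Ccnd1 (0.50, SE 0.19, adjusted p = 0.054). Spp1 differed widely between lines, from 494 to 13197 CPM in mono-culture.

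**Figure D4:**
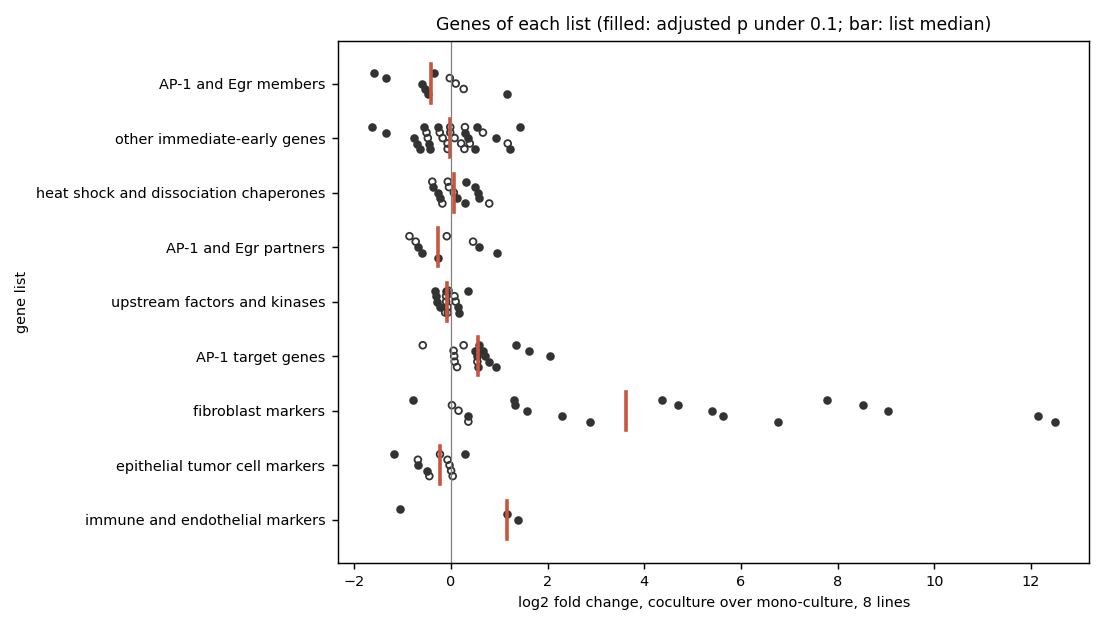
Log2 fold change of coculture over mono-culture over 8 lines (x axis) for the genes of each list (y axis); filled points had an edgeR adjusted p under 0.1 and the red bar is the median of the list. The members' median lies at -0.41, that of the other immediate-early genes at -0.02, that of the chaperones at 0.06 and that of the fibroblast markers at 3.62.

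As coculture and sorting cannot be told apart, genes known to respond to dissociation and heat were set beside the members. Of 15 heat shock and dissociation chaperones 3 were lower and 6 higher in the sorted coculture libraries, beside 25.1% and 26.8% of all genes tested. The median log2 fold change of these chaperones was 0.06. Their summed level was 8320 to 12969 CPM in mono-culture (median 10182) and 9100 to 15118 CPM in coculture (median 11851). Hspa1a, the stress-inducible Hsp70 gene, was at most 2.23 CPM in mono-culture and 1.41 CPM in coculture (0.79, SE 0.60, edgeR adjusted p = 0.31). Its neighbor Hspa1b was at medians of 6.62 and 5.58 CPM (-0.18, SE 0.18, adjusted p = 0.45). These paralogs are nearly identical and their reads could be split. The most abundant chaperones were Hsp90ab1 (0.13, SE 0.06, adjusted p = 0.087), Hspa8 (0.31, SE 0.09, adjusted p = 0.016), Hspd1 (0.57, SE 0.08, adjusted p = 0.0011) and Hsp90aa1 (0.49, SE 0.08, adjusted p = 0.0019). Fos, Fosb and Egr1 were lower in the libraries that are stated to be sorted, and Fosl1 was the 1 member called higher. How the mono-cultures were harvested was not tested, nor was the part that sorting had in either shift.

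Fibroblast RNA moved with culture as well. Of 20 fibroblast markers 16 were higher in coculture and 1 lower (26.8% and 25.1% of all genes tested), with a median log2 fold change of 3.62. The sum of Dcn, Fap, Postn and Thy1 was 56.7 ± 36.9 CPM in coculture V (lowest line) and 97.4 ± 48.6 CPM in coculture N (highest; SD over 4 libraries), against at most 0.0743 CPM in the mean of any mono-culture. Postn, a matrix protein of activated fibroblasts, reached 134 CPM in 1 coculture library, and Thy1 was 1.11 to 24.9 CPM. Lum stayed near 0, at 0.560 CPM or less. The 20 markers together summed to 6784 to 21423 CPM in mono-culture and 7113 to 20689 CPM in coculture, because the tumor cells themselves make much of Fn1, Vim and Sparc. By line, Dcn, Fap, Postn and Thy1 together averaged 97.4 CPM in coculture N, 90.9 in K, 83.5 in T and 72.0 in M. They averaged 66.8 CPM in H, 60.8 in KPC1, 60.7 in E and 56.7 in V, and the marker sums of the lines overlapped between libraries. In the same order of lines, the log2 fold change of Fosl1 was 0.39, 0.51, 1.54, 1.43, 1.32, 0.97, 1.09 and 1.89. Among the 32 coculture libraries, the deviation of Fosl1 from its line mean went with that of the 4 markers with a Pearson r of 0.20 (Spearman rho 0.22), Fos with 0.23 (0.26) and Egr2 with 0.39 (0.39); the libraries share their processing, and this is a description. No library of fibroblasts alone was analysed here, and the part of fibroblast RNA in the members' levels was not tested.

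Of 12 epithelial markers 11 were tested, and 3 were lower and 1 higher in coculture, beside 25.1% and 26.8% of all genes tested. Krt19 fell from 509 ± 268 to 295 ± 123 CPM (-0.68, SE 0.12, edgeR adjusted p = 0.0025) and Krt8 from 995 ± 225 to 776 ± 393 CPM (-0.49, SE 0.22, adjusted p = 0.090), whereas Krt18 (0.04, adjusted p = 0.77) and Msln (-0.03, adjusted p = 0.80) were not called. Of 3 immune and endothelial markers tested, Cd68 (1.39, SE 0.34, edgeR adjusted p = 0.010) and Kdr (1.16, SE 0.44, adjusted p = 0.056) were higher and Pecam1 (-1.06, SE 0.38, adjusted p = 0.044) lower. Kdr and Pecam1 were near the floor. Their medians over libraries were 0.066 and 0.836 CPM in mono-culture and 0.433 and 0.294 CPM in coculture. Lyz2 was at most 0.207 CPM in any library, Ptprc 0.235 CPM and Cdh5 0.123 CPM, and none of these was tested.

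Levels also differed between lines before coculture. Over the 32 mono-culture libraries all 10 members differed between the 8 lines (edgeR F test, 7 degrees of freedom), as did 96.8% of 13624 genes tested. Of the 28 pairs of lines, Fosl1 was called in 23, Fosl2 and Egr3 in 19 each, Junb in 16, Jun and Egr2 in 14 each, Jund in 13, Fos in 10, and Fosb and Egr1 in 8 each. Together these were 144 of 280 (51.4%), beside 61.7% of pairs over all genes.

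Fos was highest in M, with 394, 197, 1002 and 1127 CPM, and lowest in KPC1, with 41.7, 4.67, 28.5 and 116 CPM. From high to low the means ran M, E, T, K, H, N, V and KPC1, 14.3-fold in all, and no 2 neighbors in that order were called apart (adjusted p between 0.43 and 0.88). M also had the highest mean of Fosb, Junb, Egr1 and Egr2 and the lowest of Fosl1. Fosl1 was highest in N, with 160, 128, 209 and 213 CPM, and then ran KPC1, E, T, K, H, V and M, where it held 37.5, 30.7, 55.1 and 35.2 CPM, a 4.48-fold range. In that order KPC1 and E (adjusted p = 0.011) and T and K (adjusted p = 0.016) were apart, and the other neighbors were not called.

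Egr3 ran T, N, E, H, KPC1, M, K and V, over an 8.98-fold range, with steps between E and H (adjusted p = 0.010) and between K and V (adjusted p = 0.062). Fosl2 ran K, E, T, N, V, M, KPC1 and H, over 2.51-fold, with steps between E and T (adjusted p = 0.036) and between T and N (adjusted p = 0.093). The orders of Jun (H, M, E, V, KPC1, K, N and T, 3.69-fold) and of Jund (E, K, T, V, M, H, KPC1 and N, 1.63-fold) had no neighbors apart. The same held for Junb, Egr1, Egr2 and Fosb, whose highest and lowest lines were 3.42-fold, 3.70-fold, 18.3-fold and 11.1-fold apart.

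The study places E, H and V in a metabolic group 1 and K, M, N and T in a group 2, with KPC1 in neither. In mono-culture, with each clone as 1 sum, no member was called between the groups, and neither was any of 14829 genes (0%), by edgeR. At an unadjusted p under 0.05 there were 744 genes and 0 members, and DESeq2 called 157 genes and 0 members. The largest estimates were for Egr2 (-1.07, SE 0.92, group 1 minus group 2, adjusted p = 0.91) and Jun (0.72, SE 0.49, adjusted p = 0.90).

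The spread between libraries of the same line and culture was itself a feature of some members. For Fos the highest of 4 mono-culture libraries was 7.77 times the lowest in the median line, for Fosb 8.46 times, for Egr2 5.11 times and for Egr1 4.37 times. Over 14038 genes the median was 1.32 times, and 99.8% of them had less spread than Fos. Jund (1.35 times) and Fosl2 (1.53 times) were near the typical gene, and Fosl1 was at 1.73 times. In coculture the spread of Fos was 4.19 times and that of Fosb 3.93 times, beside 1.41 times for the median gene.

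Across the 64 libraries, with the mean of each line and culture taken out, some members moved closely together. Fos, Fosb and Egr1 rose and fell together: Pearson's r was 0.92 for Fos and Fosb (Spearman rho 0.93), 0.91 for Fos and Egr1 (0.91) and 0.91 for Fosb and Egr1 (0.91). Egr2 and Egr3 followed each other at 0.79 (0.75), and Junb followed Fosb at 0.75 (0.71). Jun was closest to Fosb, at 0.71 (0.70). Fosl1 and Fosl2 did not follow Fos, at r of -0.04 and 0.003. With each other their r was 0.09, which pools -0.35 in mono-culture and 0.55 in coculture, and Fosl1 went with Egr2 at 0.38 (0.37) and with Egr3 at 0.30 (0.21). The points share library preparation and depth, and these are descriptions without a test.

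**Figure D5:**
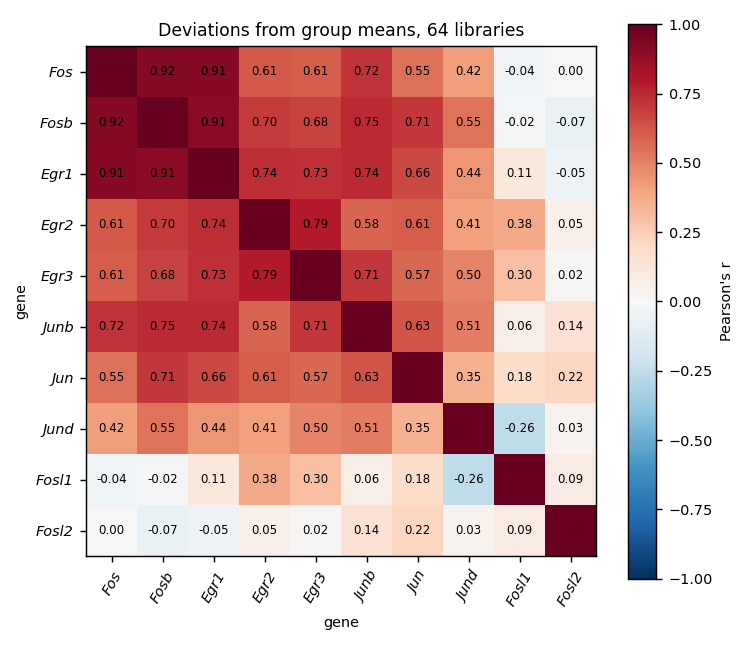
Pearson's r between the genes (both axes) over 64 libraries, computed on log2 CPM after the mean of each line and culture was removed; red is positive and blue negative. Fos, Fosb and Egr1 form a block of 0.91 to 0.92, and the rows of Fosl1 and Fosl2 are near 0 with Fos.

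Compared over the means of the 16 groups, the genes most like Fos among 14134 were Zfp36 (r = 0.97), Fosb (0.97) and Abhd14b (0.96). Those most like Egr1 were Fosb (0.90), Mapre2 (0.90) and Tmem8 (0.90), and Fos ranked ninth at 0.88. For Jun they were Hdac11 (0.82), Adamts17 (0.82) and Fyco1 (0.81), none of them a member. For Fosl1 they were Rrp12, a ribosome biogenesis factor (0.97), Steap1 (0.95) and Got1, the cytosolic aspartate aminotransferase (0.95), and its r with Fos over the groups was -0.61. These r are over 16 points that share lines and cultures, and say nothing of shared control.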

How the data were processed

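RNA was measured by strand-specific, paired-end sequencing of polyadenylated RNA in 64 libraries of 8 lines and 2 cultures. The authors deposited whole-number counts of reads on 39017 genes, without normalization, and RPKM values for 49585 genes. The submitters' processing notes name featureCounts, edgeR and the build mm10; the aligner and the annotation are not given in the sources used here. Groups were taken from the labels, and no column was left unmapped.

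Counts were tested with edgeR 4.0.16 (quasi-likelihood, TMM, filterByExpr, Benjamini-Hochberg, threshold 0.1, R 4.3.3), after a check on simulated data. Over the lines, 16 sums were fitted with the line as covariate; single lines, interaction and mono-culture used single libraries. CPM are TMM-scaled, and log2 CPM had a prior count of 0.5. Levels of different genes were compared only as the deposited RPKM. Alternatives were DESeq2 1.42.0, RLE, no filter, limma 3.58.1 on log2(RPKM + 1) and log2(RPKM + 0.1), a threshold of 0.05, leaving out replicates or lines, replicate blocks and the number series; series B alone was added after the data were seen. Genes named from the other lists were the 4 most abundant in mono-culture, except for the fibroblast list. From it Dcn, Fap, Postn and Thy1 were named, because earlier results had them near 0 in mono-culture. Others named from the lists were chosen after their values were seen. The 3 most correlated genes were named for Fos, Egr1, Jun and Fosl1. The members and lists were chosen with earlier results of these data known. Symbols matching 2 rows (Atf7 and Mafg) and 1 not found (Adgre1) were left out. Library totals (11178721 counts or more) leave the lowest counts of a member in 1 library at 9 (Egr2), 21 (Fosb) and 39 (Egr3), where counting error is not small. Promoters are from RefSeq. 1 gene among the most abundant upstream kinases, and part of the genotype, are not reported here.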

Additional observations from a re-analysis of the deposited data

Results flagged for a closer look

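In groups of 4 libraries, a library was marked where its gap to the nearest other, as a ratio to the range of the group, exceeded Dixon's 95% critical value. Of 176 groups tested (10 genes in log2 CPM and the library total, in 16 groups each), 9 were marked, and chance marks about 1 in 20, which would be 8.8. In coculture they were Jun in E replicate 2 (37.6 CPM, the others 59.9 to 64.8, ratio 0.857), Junb in N replicate 3 (318 CPM, the others 261 to 270, ratio 0.844), Jund in K replicate 4 (167 CPM, the others 276 to 295, ratio 0.885), Egr2 in N replicate 1 (24.5 CPM, the others 41.3 to 45.8, ratio 0.836) and Egr3 in V replicate 1 (5.08 CPM, the others 10.5 to 11.7, ratio 0.875). In mono-culture they were Egr2 in V replicate 3 (2.74 CPM, the others 0.513 to 0.611, ratio 0.898), Egr3 in H replicate 3 (24.9 CPM, the others 13.9 to 15.2, ratio 0.847) and Egr3 in K replicate 1 (5.64 CPM, the others 14.2 to 16.2, ratio 0.876). The total of KPC1 coculture replicate 2 was 11178721 counts, below the others (ratio 0.867).

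The response to coculture differed between the lines, by edgeR's F test of the interaction, for Fosl1 (adjusted p = 0.0019), Fosl2 (adjusted p = 0.0052), Jun (adjusted p = 0.0387), Junb (adjusted p = 0.000113), Jund (adjusted p = 0.000847) and Egr3 (adjusted p = 0.0145). For Junb the estimates ran from -1.44 in E to 0.46 in V, for Jun from -1.07 in E to 0.76 in N, for Egr3 from -1.92 in T to 0.48 in V, and for Fosl2 from -0.47 in E to 0.55 in H. Fosl1 was above 0 in every line, from 0.39 in N to 1.89 in V.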

How the results depend on the processing

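The counts of members called over the lines (6 lower, 1 higher) were within 1.5 times of those values under 22 of 23 alternatives each; in series B alone, added after the data were seen, 2 were lower. Leaving out a line or replicate gave 4 to 6 lower and 1 higher; in single lines, 13 to 19 pairs of member and line lower and 7 to 9 higher; 5 to 6 members by the interaction; 9 to 10 between lines in mono-culture; and 0 between the groups. Over all lists 25 genes were lower; 38 were so with 64 libraries in place of sums, with or without the number series or the replicate block, and 15 in series B alone.

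With the replicate number as a block, and 64 libraries in place of sums, 2 members were higher over the lines (Egr2 joining, 0.37, edgeR adjusted p = 0.051). In single lines 30 pairs of member and line were then lower and 15 higher, and 9 members were called by the interaction. Egr1 was lower in E (-0.97, adjusted p = 0.022), H (-0.81, adjusted p = 0.072) and T (-0.999, adjusted p = 0.018). Between the groups, the fits with the block or the number series took single mono-culture libraries as replicates, not clones. They had no term for the clone, so their p-values measure the spread between libraries. With the block 1 member was called there (Jun, 0.75, adjusted p = 0.081), and with the number series as a covariate 1 (Egr2, -1.48, adjusted p = 0.046). With that covariate 7 members were called by the interaction, as with DESeq2. The numbers are not stated to pair the libraries: 18 of 32 same-numbered pairs had deviations correlated above 0.1 (-0.07 to 0.29), and 24 of 32 matched their own number best. The cause was not tested. RLE in place of TMM moved the median fold change by at most 0.017 (log2). Among values called in neither fit, 40 changed sign.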

Other observations

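Same-numbered mono-culture and coculture libraries of a line tended to deviate together for most members, although nothing in the labels pairs them. Over 32 such pairs, with line and culture means taken out, Pearson's r was 0.74 for Egr2, 0.71 for Fosb, 0.69 for Fos and 0.64 for Egr1 (Spearman rho 0.67, 0.70, 0.66 and 0.61), followed by Fosl2 and Jun (0.52 each; rho 0.55 and 0.51), Egr3 (0.45; rho 0.23) and Fosl1 (0.41; rho 0.40). It was lowest for Junb (0.19; rho 0.13) and Jund (0.16; rho 0.13). In clone M, replicates 3 and 4 had the most Fos in both cultures, at 1002 and 1127 CPM in mono-culture and 527 and 477 CPM in coculture. The lowest Fos library had the same number in both cultures in 6 of 8 lines, and the highest in 4 of 8. These are descriptions, and their source was not tested.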
